A study of Rattus norvegicus with 16 samples.

Results

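The antioxidant and glutathione genes described here are 39 genes whose products remove superoxide and peroxides, make and recycle glutathione, or attach it to reactive compounds. They form a list of gene names, and a gene was taken where its symbol stood in the count tables of rat ventral prostate. All 39 were found in the table of postnatal day (PND) 540, which has 24218 entries, and 37 in the table of PND21, which has 28688 entries. *Srxn1* and *Gstm2* were not analysed at PND21. Every member found passed the expression filter and was tested, though *Gpx4* at PND21 and *Gstm3* at PND540 only with values near 0.

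Messenger RNA of the ventral prostate, an androgen-dependent gland that secretes into seminal fluid, was sequenced from rat (Rattus norvegicus) offspring of dams on 2 diets. GLLP dams ate a diet with 6% protein while pregnant and while nursing, and CTR dams a normal diet with 17% protein. The 4 groups were GLLP at PND540 (n = 4), CTR at PND540 (n = 5), GLLP at PND21 (n = 3, numbered 2 to 4) and CTR at PND21 (n = 4). The labels name no strain and no genetic change, and give no diet for the offspring after weaning. Whether some libraries come from littermates is not said, so a p-value here speaks only of the variation among these libraries.

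Superoxide dismutases turn superoxide into hydrogen peroxide, which catalase, glutathione peroxidases and peroxiredoxins reduce further. Glutathione peroxidases draw on the tripeptide glutathione, made by glutamate-cysteine ligase (Gclc and Gclm) and glutathione synthetase (Gss) and recycled by glutathione reductase (Gsr); peroxiredoxins draw mainly on thioredoxin. Glutathione transferases couple glutathione to electrophiles. The transcription factor Nrf2, encoded by *Nfe2l2* and held back by Keap1, switches on many of these genes through antioxidant response elements.

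The libraries held 28748604 to 39161666 counts each. At PND540 CTR replicate 5 stood apart: its median correlation with the other libraries of that age was 0.851, against at least 0.956 for the others, and the members held 1.13% of its counts, against 0.509% to 0.646% in the other 8. Counts of members at PND540 are given with and without it, as are the values of several members. At PND21 CTR replicate 1 had 0.282% of its counts in mitochondrial genes, against 3.66% to 5.02% in the other 6 libraries. Its counts differed from those of the other CTR libraries with 136 to 161 chi-square units per degree of freedom, against 30.3 to 48.3 among those 3. Without it, 0 members were called between the diets at PND21, and 4 rose and 6 fell with age in CTR glands, as with it. Markers of luminal epithelium (10 of 10 found) summed to 3503 to 7587 CPM (counts relative to the scaled library total) in every library, and none of those 10 was at 0 anywhere. Seminal vesicle markers summed to at most 0.140 CPM. In whole-gland RNA, fewer cells of a type and less RNA per cell cannot be told apart.

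Promoters from RefSeq (assembly GRCr8, 250 bases before to 50 after the annotated start) were at hand for 31 of the 39 members. The 6 printed here belong to members with a large age difference (*Gpx7*, *Prdx4*, *Gclc* and *Gpx3*) or carry the core of the antioxidant response element (*Prdx4*, *Gpx2* and *Gstp1*). Capitals mark that core, TGACNNNGC on either strand. Each line runs 5′ to 3′ on the strand of the gene.
Gpx7 promoter (GRCr8 chr5:128381676-128381975, minus strand): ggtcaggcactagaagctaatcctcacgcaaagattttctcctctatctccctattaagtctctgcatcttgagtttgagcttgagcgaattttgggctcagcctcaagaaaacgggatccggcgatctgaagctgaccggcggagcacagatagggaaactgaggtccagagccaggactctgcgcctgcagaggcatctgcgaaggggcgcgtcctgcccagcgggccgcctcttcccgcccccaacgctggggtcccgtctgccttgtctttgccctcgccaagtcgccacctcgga
Prdx4 promoter (GRCr8 chrX:43878483-43878782, plus strand): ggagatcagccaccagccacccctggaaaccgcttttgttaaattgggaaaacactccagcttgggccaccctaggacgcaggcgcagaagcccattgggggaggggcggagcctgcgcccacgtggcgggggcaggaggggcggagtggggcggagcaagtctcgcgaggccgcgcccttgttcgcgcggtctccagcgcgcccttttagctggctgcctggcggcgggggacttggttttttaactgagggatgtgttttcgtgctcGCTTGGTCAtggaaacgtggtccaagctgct
Gclc promoter (GRCr8 chr8:87510226-87510525, plus strand): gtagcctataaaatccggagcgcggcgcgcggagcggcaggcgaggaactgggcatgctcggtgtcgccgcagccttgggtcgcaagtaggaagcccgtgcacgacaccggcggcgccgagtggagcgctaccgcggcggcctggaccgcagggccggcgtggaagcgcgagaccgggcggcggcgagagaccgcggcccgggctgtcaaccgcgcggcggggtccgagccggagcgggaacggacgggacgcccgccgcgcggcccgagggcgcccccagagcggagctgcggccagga
Gpx3 promoter (GRCr8 chr10:39529085-39529384, plus strand): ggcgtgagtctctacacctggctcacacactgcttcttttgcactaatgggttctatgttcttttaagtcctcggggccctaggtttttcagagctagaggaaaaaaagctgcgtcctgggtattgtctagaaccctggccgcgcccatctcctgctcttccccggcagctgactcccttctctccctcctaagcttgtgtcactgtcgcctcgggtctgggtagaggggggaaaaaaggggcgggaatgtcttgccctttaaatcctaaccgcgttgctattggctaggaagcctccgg
Gpx2 promoter (GRCr8 chr6:101229984-101230283, minus strand): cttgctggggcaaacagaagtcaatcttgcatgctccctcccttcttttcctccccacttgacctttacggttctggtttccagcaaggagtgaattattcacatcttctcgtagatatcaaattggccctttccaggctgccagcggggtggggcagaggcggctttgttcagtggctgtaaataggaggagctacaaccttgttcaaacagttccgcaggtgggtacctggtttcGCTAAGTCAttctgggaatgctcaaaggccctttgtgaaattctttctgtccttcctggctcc
Gstp1 promoter (GRCr8 chr1:210769656-210769955, minus strand): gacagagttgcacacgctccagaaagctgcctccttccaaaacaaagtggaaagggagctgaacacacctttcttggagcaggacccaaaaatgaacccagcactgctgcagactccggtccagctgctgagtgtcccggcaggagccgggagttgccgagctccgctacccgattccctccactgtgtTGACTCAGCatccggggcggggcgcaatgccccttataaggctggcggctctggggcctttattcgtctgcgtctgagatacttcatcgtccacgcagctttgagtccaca

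The core lay at positions -13 to -5 from the start in *Gpx2*, 20 to 28 in *Prdx4* and -61 to -53 in *Gstp1*. Of the 31 member promoters, 8 (25.8%) held it, against 12.1% of 33469 rat promoters of the same length. *Sod2*, *Prdx1*, *Prdx5*, *Gclm* and *Nfe2l2* were the others. The AP-1 letters TGANTCA, searched on both strands, were in 5 member promoters (16.1%), against 7.33% of all, and in *Gstp1* they overlapped the antioxidant core. The median GC content of the member promoters was 58.7%, against 51.7% of all promoters, and ranged in the printed ones up to 76.7% in *Gclc*. Of the members that fell with age in both diets, *Prdx4* held the core in this window, and *Gpx7* and *Gclc* did not; nor did *Gpx3*, which rose.

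The strongest differences among the members lay between the ages. In the 540-day gland the secreted peroxidase *Gpx3* was several-fold higher in both diets, and the 3 peroxidases of the endoplasmic reticulum (*Gpx7*, *Gpx8* and *Prdx4*), the rate-limiting subunit of glutathione synthesis (*Gclc*) and the transferase *Gsta4* were lower in both. *Gstm1* was higher in both. By edgeR's quasi-likelihood test at an adjusted p of 0.05, 5 of 37 members rose and 7 fell with age in GLLP glands, where 19.1% of all genes rose and 17.1% fell. In CTR glands 4 rose and 6 fell, where 17.3% and 13.2% of all genes did. The members' shares were near those of genes at large. Without CTR replicate 5, 7 members rose and 11 fell in CTR glands, against 26% and 23% of all genes. With library size alone as the scaling, which moved the median log2 difference of all genes to -0.16 in GLLP and -0.05 in CTR (0.02 and 0.07 with TMM factors), 4 members rose and 12 fell in GLLP glands, against 14.3% and 21.3% of all genes. Every old gland lay above every young one for 8 members and below for 12 in GLLP (22.8% and 21.9% of all genes), and for 6 and 8 in CTR (18.7% and 19% of all genes). Each age was counted in its own table, with different gene annotations, so age and table cannot be told apart; CPM in these comparisons were scaled over the genes shared by all 16 libraries.

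**Figure D1:**
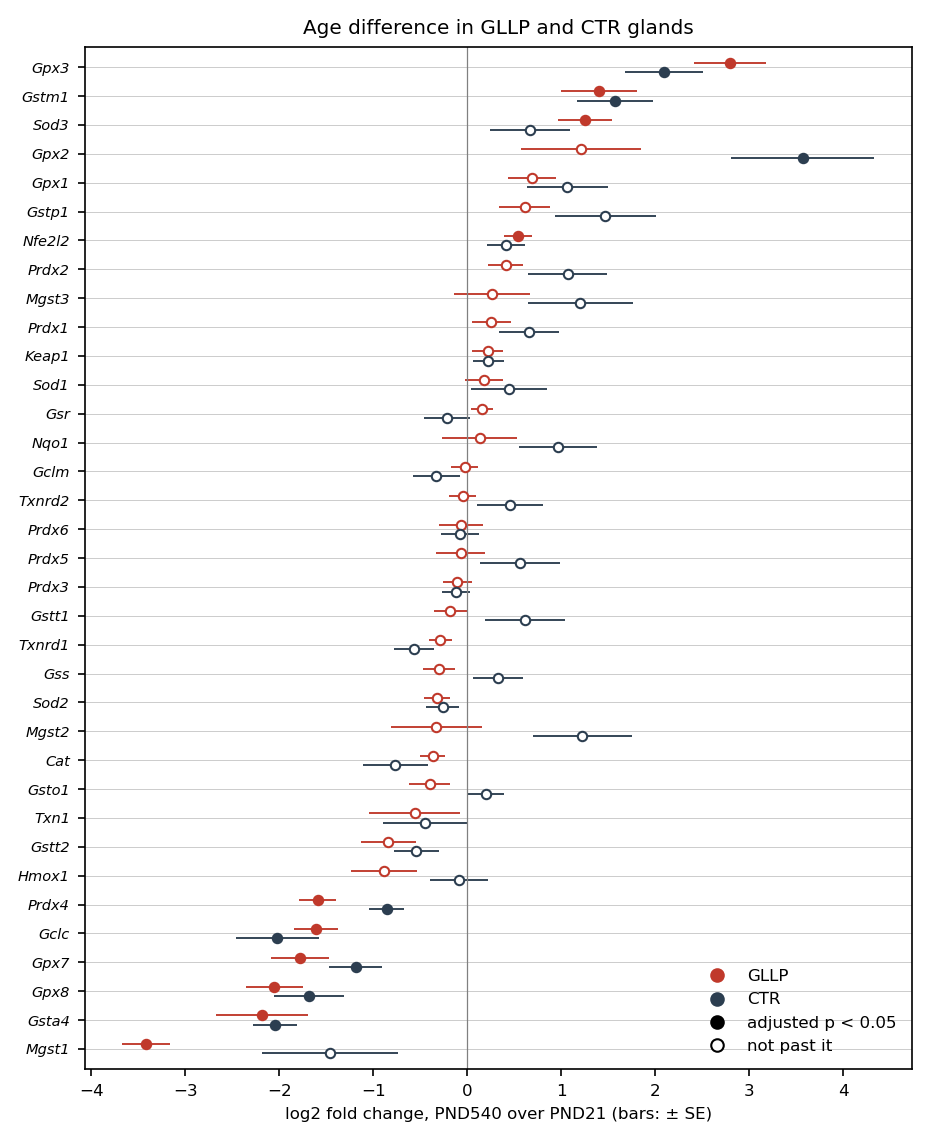
Log2 fold change of PND540 over PND21 (x axis, with SE) for the 35 members measured at comparable depth in both tables (rows), in GLLP glands (red, 4 against 3 libraries) and CTR glands (dark, 5 against 4). Filled points passed the adjusted threshold: *Gpx3* and *Gstm1* lie to the right and *Prdx4*, *Gclc*, *Gpx7*, *Gpx8* and *Gsta4* to the left in both diets, while *Mgst1*, *Sod3* and *Nfe2l2* passed in GLLP and *Gpx2* in CTR.

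Among the glutathione peroxidases, *Gpx3*, whose product is secreted, stood at 163, 60.5, 74.2 and 151 CPM in GLLP glands at PND540, against 14.4, 14.6 and 19.1 CPM in GLLP glands at PND21. In CTR glands it stood at 24.4, 109.6, 101, 45.7 and 88.6 CPM at PND540, against 19.9, 17.3, 17.6 and 14.8 CPM at PND21. Every old gland exceeded every young one, and the old glands differed several-fold among themselves. The rise was 6.93-fold in GLLP (log2 2.79 ± 0.39 SE, edgeR adjusted p = 0.000666) and 4.25-fold in CTR (log2 2.09 ± 0.42 SE, edgeR adjusted p = 0.00407).

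*Gpx2*, a peroxidase best known from the lining of the gut, had 7.25, 7.54, 8.38, 26.3 and 63.6 CPM in CTR glands at PND540, against 1.77, 2.33, 2.31 and 1.20 CPM at PND21. All 5 old CTR glands lay above the 4 young ones, with replicates 4 and 5 far above the rest. The CTR rise was 11.9-fold (log2 3.57 ± 0.76 SE, edgeR adjusted p = 0.00581) with replicate 5 and 6.51-fold (adjusted p = 0.00125) without it. Both folds rest on low young values, of at most 2.33 CPM. In GLLP glands it had 4.51, 6.12, 2.59 and 14.9 CPM at PND540, against 1.51, 2.64 and 4.88 CPM at PND21; the ages overlapped (log2 1.21 ± 0.64 SE, adjusted p = 0.173).

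*Gpx7* and *Gpx8* encode peroxidases of the endoplasmic reticulum that take part in the folding of disulfide-bonded proteins, and both were lower in old glands. *Gpx8* had 5.02, 2.54, 3.55 and 5.28 CPM in GLLP glands at PND540, against 13.9, 16.9 and 19.9 CPM at PND21. In CTR glands it had 1.34, 2.75, 4.29, 2.78 and 5.82 CPM at PND540, against 10.9, 10.3, 13.2 and 9.34 CPM at PND21. The ages did not overlap in either diet, and the fall was 4.16-fold in GLLP and 3.21-fold in CTR (edgeR adjusted p = 0.000957 and 0.00725). *Gpx7* ranged from 2.40 to 5.21 CPM in GLLP glands at PND540, against 12.0 to 15.7 CPM at PND21, and in CTR glands from 3.10 to 7.18 CPM, against 7.98 to 12.6 CPM. Its fall was 3.43-fold in GLLP and 2.28-fold in CTR (adjusted p = 0.00209 and 0.0107). *Gpx1*, the general cytosolic peroxidase, was higher in every old gland than in any young one of its diet, with log2 differences of 0.69 in GLLP and 1.07 in CTR that did not pass (adjusted p = 0.0637 and 0.0922). Without CTR replicate 5 it rose 1.37-fold in CTR glands (adjusted p = 0.00769).

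The peroxiredoxin of the endoplasmic reticulum, *Prdx4*, moved like *Gpx7* and *Gpx8*. It had 20.2, 12.4, 17.7 and 16.9 CPM in GLLP glands at PND540, against 40.3, 54.9 and 55.4 CPM at PND21. CTR glands had 15.2, 16.8, 23.7, 18.9 and 22.4 CPM at PND540, against 30.2, 37.7, 36.1 and 36.9 CPM at PND21. No old gland reached the level of a young one, and the fall was 3.02-fold in GLLP (log2 -1.59 ± 0.20 SE, edgeR adjusted p = 0.000401) and 1.81-fold in CTR (log2 -0.86 ± 0.18 SE, adjusted p = 0.00548). The other peroxiredoxins did not pass in either diet: the mitochondrial *Prdx3* and the 1-Cys *Prdx6* differed by less than 0.13 on the log2 scale in both, while *Prdx2*, abundant in red cells and cytosol, had log2 differences of 0.41 in GLLP and 1.07 in CTR (adjusted p = 0.120 and 0.0831). The cytosolic *Prdx1* had log2 differences of 0.26 in GLLP and 0.66 in CTR, and *Prdx5* of -0.07 and 0.56; without CTR replicate 5 the CTR values were 0.27 and 0.08. Thioredoxin (*Txn1*) and its reductases *Txnrd1* (cytosolic) and *Txnrd2* (mitochondrial) did not pass either. Without CTR replicate 5, *Prdx2* rose by 0.53 on the log2 scale in CTR glands, *Txn1* fell (-0.95) and *Txnrd1* fell (-0.43), with adjusted p = 0.0341, 0.0237 and 0.00337.

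The genes of the endoplasmic reticulum were grouped after their values had been seen. Markers of fibroblasts and matrix (8 of 8 found, none at 0) were lower in old glands too. These markers summed to 182 to 707 CPM in GLLP glands at PND540, against 6232 to 7829 CPM at PND21. In CTR glands they summed to 87.0 to 540 CPM at PND540, against 4409 to 6464 CPM at PND21. Smooth muscle markers (8 of 8 found, none at 0) summed to 686 to 1740 CPM in old GLLP glands, against 3807 to 4406 CPM in young ones, and to 576 to 1722 CPM in old CTR glands, against 3485 to 4079 CPM in young ones. Luminal markers summed to 5160 to 6213 CPM in old GLLP glands, against 3898 to 4160 CPM in young ones. Old CTR glands had 5369 to 8634 CPM of these, against 4196 to 4431 CPM in young ones. Endothelial markers (7 of 8 found) summed to 37.7 to 102 CPM in old GLLP glands, against 140 to 153 CPM in young ones. In old CTR glands they summed to 32.8 to 92.6 CPM, against 116 to 130 CPM in young ones. Basal markers (8 of 9 found) summed to 460 to 773 CPM in old GLLP glands, against 856 to 1641 CPM in young ones, and overlapped between the ages in CTR. Adipocyte markers (10 of 10 found) summed to 198 to 450 CPM in old GLLP glands, against 49.2 to 125 CPM in young ones. In old CTR glands they summed to 22.5 to 446 CPM, against 66.5 to 144 CPM in young ones. Stromal and endothelial markers were thus lower and luminal ones higher in the old glands of both diets. The adipocyte sums were higher in old GLLP glands and overlapped between the ages in CTR. The part of these shifts in the members' values was not tested.

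**Figure D2:**
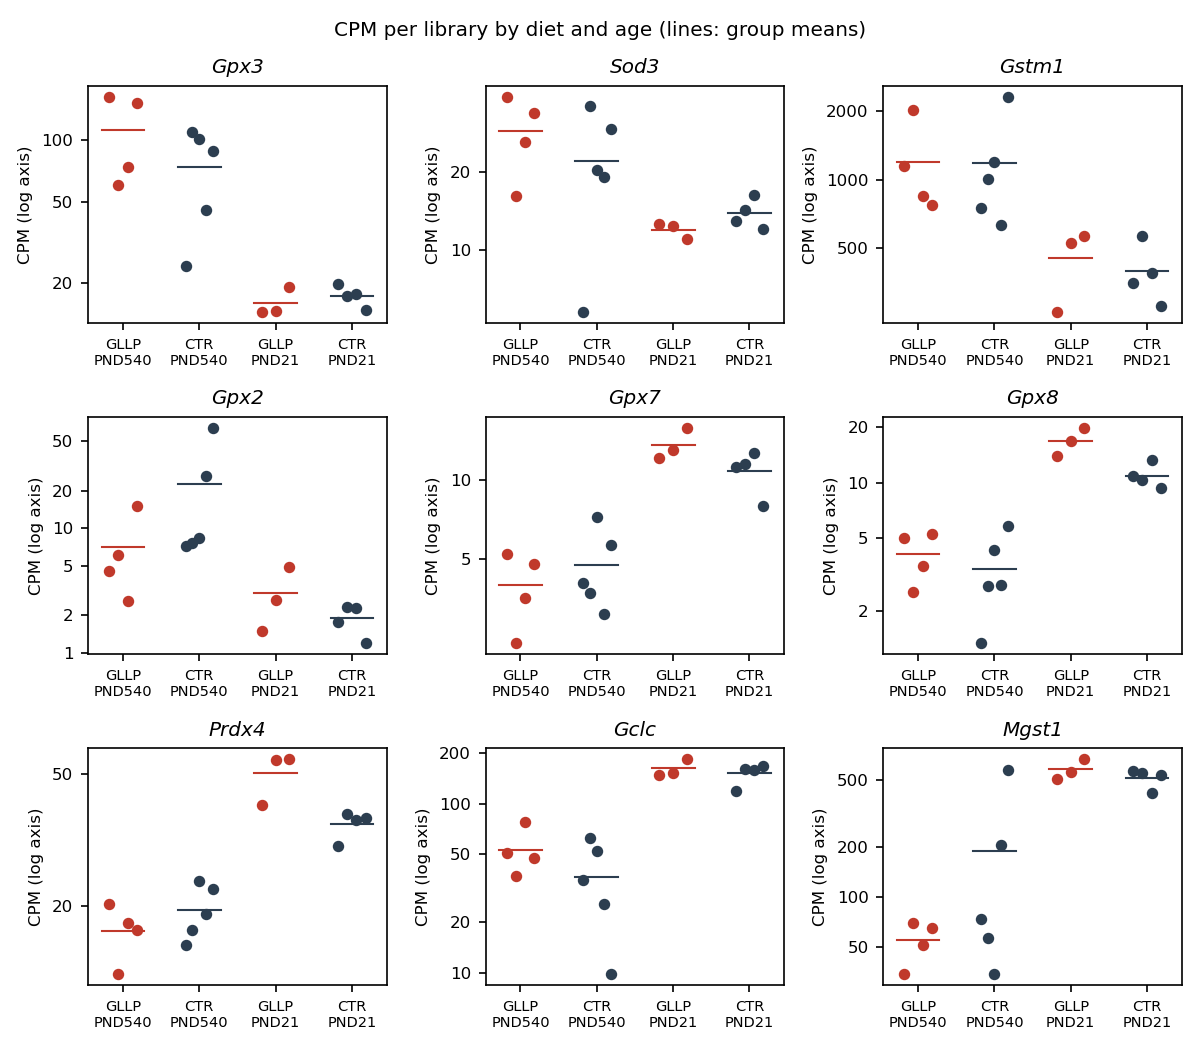
CPM on a log axis (y) of 9 members in every library, by group along the x axis (GLLP then CTR at PND540, GLLP then CTR at PND21); points are libraries and lines are group means. *Gpx3* is higher in every old gland, and *Gpx7*, *Gpx8*, *Prdx4* and *Gclc* are lower in every old gland, while *Mgst1* in CTR glands at PND540 spreads from 34.7 to 574 CPM.

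Of the superoxide-handling members, the extracellular *Sod3* had 39, 16.2, 26.0 and 33.8 CPM in GLLP glands at PND540, against 12.6, 12.3 and 11.0 CPM at PND21. The groups did not overlap and the rise was 2.38-fold (log2 1.25 ± 0.29 SE, edgeR adjusted p = 0.00890). In CTR glands it had 5.74, 35.9, 20.3, 19.0 and 29.2 CPM at PND540, against 12.9, 14.2, 16.3 and 12.0 CPM at PND21, and replicate 1, the lowest of the 16 libraries, made the ages overlap (log2 0.67 ± 0.43 SE, adjusted p = 0.265). Without that replicate the CTR difference passed, at a log2 of 0.92 (adjusted p = 0.0238). The cytosolic *Sod1*, the mitochondrial *Sod2* and the peroxisomal catalase gene *Cat* did not pass in either diet. *Cat* was lower in every old gland than in any young one of its diet, by log2 -0.37 in GLLP (adjusted p = 0.0547) and -0.77 in CTR (adjusted p = 0.121), and in CTR glands without replicate 5 it fell 1.46-fold (adjusted p = 0.00139). *Sod2* fell there too (1.29-fold, adjusted p = 0.0278).

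In the glutathione synthesis group, *Gclc*, the catalytic subunit of glutamate-cysteine ligase, was the 1 member of 4 that passed. It had 51.2, 37.1, 77.5 and 47.4 CPM in GLLP glands at PND540, against 148, 152 and 184 CPM at PND21. In CTR glands it had 35.3, 62.3, 52.2, 25.5 and 9.77 CPM at PND540, against 119, 159, 158 and 166 CPM at PND21. The highest old gland of either diet lay well below the lowest young one, and the fall was 3.06-fold in GLLP (log2 -1.61 ± 0.23 SE, edgeR adjusted p = 0.00088) and 4.06-fold in CTR (log2 -2.02 ± 0.44 SE, adjusted p = 0.00658). Its modifier subunit *Gclm*, with log2 differences of -0.03 in GLLP and -0.33 in CTR, *Gss* and *Gsr* did not pass. *Nfe2l2* rose 1.45-fold in GLLP glands, with 165, 166, 145 and 197 CPM at PND540, against 128, 117 and 101 CPM at PND21 (adjusted p = 0.0227). That call was lost without GLLP PND21 replicate 3 or 4 (adjusted p = 0.0823 and 0.0826) and with library size alone as the scaling (0.151). In CTR glands *Nfe2l2* had a log2 difference of 0.41 (adjusted p = 0.151), and without replicate 5 it rose 1.45-fold (adjusted p = 0.000632). *Keap1* and 2 genes that Nrf2 is known to induce, the quinone reductase *Nqo1* and the heme oxygenase *Hmox1*, did not pass in either diet.

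Among the cytosolic glutathione transferases, *Gsta4*, known for clearing the lipid peroxidation product hydroxynonenal, had 1.91, 2.54, 1.81 and 6.60 CPM in GLLP glands at PND540, against 10.1, 18.9 and 14.7 CPM at PND21. In CTR glands it had 2.51, 2.75, 1.74, 3.04 and 2.11 CPM at PND540, against 9.09, 9.32, 10.0 and 11.7 CPM at PND21. It fell 4.54-fold in GLLP and 4.12-fold in CTR (edgeR adjusted p = 0.00756 and 0.000158), with no overlap of the ages. *Gstm1*, a mu-class transferase, went the other way, with 1149.9, 2024, 851 and 769.9 CPM in old GLLP glands, against 261, 525 and 564 CPM in young ones. Old CTR glands had 749.8, 1010.1, 1199, 631 and 2314 CPM of *Gstm1*, against 353, 568, 390.0 and 277 CPM in young ones. Its rise was 2.64-fold in GLLP and 2.98-fold in CTR (adjusted p = 0.0239 and 0.0146). The GLLP call was lost without PND21 replicate 2 or 3 (adjusted p = 0.0745 and 0.0595) and the CTR call without PND21 replicate 4 (0.0518). Other mu-class genes differed in direction. In CTR glands *Gstm7* fell 2.72-fold and *Gstm6* rose 3.02-fold (edgeR adjusted p = 0.0145 and 0.0110). *Gstm4* fell 1.65-fold in GLLP glands (edgeR adjusted p = 0.0252). RefSeq lists *Gstm3* as an older symbol of *Gstm7*. Whether names of this class mark the same genes at both ages was not tested. The pi-class *Gstp1*, the theta-class *Gstt1* and *Gstt2*, and *Gsto1* did not pass in either diet.

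The membrane-bound *Mgst1* had the largest fall in GLLP glands of the 35 members not set apart as near 0 in 1 table. It stood at 34.4, 69.6, 51.3 and 64.7 CPM in them at PND540, against 509, 564 and 673 CPM at PND21. The fall was 10.7-fold (log2 -3.42 ± 0.26 SE, edgeR adjusted p = 2.4e-05). CTR glands held 74.1, 56.4, 34.7, 206 and 574 CPM at PND540, against 569, 554, 418 and 535 CPM at PND21: replicates 1 to 3 resembled the old GLLP glands, replicate 4 lay between the ages, and replicate 5 was as high as the young glands. The CTR difference did not pass with all 5 (log2 -1.46 ± 0.73 SE, adjusted p = 0.159), and without replicate 5 *Mgst1* fell 5.60-fold (adjusted p = 0.00228). *Mgst2* and *Mgst3* did not pass in either diet.

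A pair of members was close to 0 in 1 table and is set apart. *Gpx4*, the phospholipid hydroperoxide peroxidase, had 6 to 19 counts per library (0.180 to 0.579 CPM) at PND21 and 127 to 651 CPM at PND540. *Gstm3* had 14 to 46 counts (0.442 to 1.38 CPM) at PND540 and 33.0 to 58.7 CPM at PND21. Both passed the age test in both diets and are counted in the calls above. RefSeq lists *Gstm3* as an older symbol of other mu-class genes, so the name may stand for different genes in the 2 tables, and RefSeq names 4 pseudogenes after *Gpx4*. Of the other genes of the pathway, the ferritin chains stood likewise, with *Fth1* listed at 0 counts in all 7 young libraries and 914 to 2280 CPM in old ones, and *Ftl1* at 5 to 15 counts and 229 to 1889 CPM. The limit of 2 CPM behind this grouping was set after the values were seen.

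A list of 125 other genes of glutathione and redox metabolism was examined with the members, and 104 of them were tested for age in each diet. In GLLP glands 16 rose and 16 fell, and in CTR glands 18 rose and 11 fell (23 and 20 of 101 without replicate 5). Of all genes, 19.1% rose and 17.1% fell in GLLP and 17.3% and 13.2% in CTR (26% and 23% without replicate 5), so these counts too were near the background. By kind, 8 rose and 3 fell of 27 NADPH suppliers and other Nrf2 targets in GLLP (7 and 1 of 27 in CTR), 3 and 5 of 24 genes of glutathione turnover and cysteine supply (3 and 4 of 23 in CTR), and 1 and 3 of 13 other glutathione transferases (2 and 3 of 13 in CTR). Of 21 other thioredoxin and glutaredoxin genes, 2 rose and 2 fell in each diet, and of the oxidant sources 2 rose and 3 fell of 19 in GLLP (4 and 1 of 20 in CTR). Counted among those that rose in both diets were *Fth1*, *Ftl1*, *Gsto2* and *Gnmt*, which were at or near 0 in the young libraries. The cystine importer *Slc7a11*, which feeds the step that Gclc catalyses, averaged 1.46 ± 0.539 CPM in GLLP glands at PND540 (SD, n = 4), against 13.2 ± 9.75 CPM in GLLP glands at PND21 (SD, n = 3) and 0.842 ± 0.584 CPM in CTR glands at PND540 (SD, n = 5), against 7.91 ± 7.72 CPM in CTR glands at PND21 (SD, n = 4). It passed the test as lower in both diets (edgeR adjusted p = 0.00193 and 0.00963), but with 6 to 57 counts per library at PND540 it falls under the same limit of 2 CPM as *Gstm3* and is set apart with it. The aldehyde dehydrogenase *Aldh3a1* does so at PND21, with 16 to 46 counts.

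*Sesn3*, a sestrin, rose 7.26-fold in GLLP and 4.75-fold in CTR glands, and *Mafg*, a small Maf partner of Nrf2, 4.22-fold and 3.41-fold (edgeR adjusted p at most 0.000203). *Msrb3*, a methionine sulfoxide reductase, fell 2.45-fold in GLLP and 2.87-fold in CTR (adjusted p = 0.00159 and 0.00486). *Ncf1*, a subunit of the phagocyte NADPH oxidase, rose 3.91-fold in GLLP and 8.84-fold in CTR (adjusted p = 0.0113 and 0.000605). Macrophage markers (10 of 10 found, none at 0) summed to 201 to 537 CPM in old GLLP glands, against 175 to 222 CPM in young ones. In old CTR glands they summed to 252 to 721 CPM, against 119 to 198 CPM in young ones. The macrophage sums overlapped between the ages in GLLP glands, where *Ncf1* did not. T and B cell markers (10 of 11 found) summed to 37.5 to 83.7 CPM in old GLLP glands, against 13.7 to 17.1 CPM in young ones. In old CTR glands they summed to 32.9 to 154 CPM, against 9.94 to 14.4 CPM in young ones. The part of any of these cells was not tested.

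The diet comparison within PND21 gave no member past the threshold: of 37 tested by edgeR, 0 were called higher (1.01% of all genes were) and 0 lower (0.107%). At an unadjusted p of 0.05 there were 7, a share near the 19.3% of all genes, and DESeq2 called 2 higher, *Gpx8* and *Prdx4*, where it called 4.5% of all genes higher and 2.02% lower. The median log2 difference of the members was 0.10, against -0.004 over all genes. All 7 cytosolic and 3 microsomal glutathione transferases had positive differences, with medians of 0.26 and 0.36, and the 3 superoxide dismutases and catalase had negative ones, with a median of -0.19. With library size alone as the scaling, which moved the median of all genes to 0.14, 30 of the 37 differences were positive, against 21 with TMM factors, and *Gpx8* and *Prdx4* were called higher, as were 4.19% of all genes.

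*Gpx8* and *Prdx4* had the smallest p. *Gpx8* stood at 12.5, 15.2 and 18 CPM in GLLP glands, against 9.78, 9.25, 11.9 and 8.39 CPM in CTR glands at PND21 (log2 0.63 ± 0.17 SE, edgeR adjusted p = 0.105). *Prdx4* stood at 36.1, 49.4 and 50.1 CPM in GLLP glands, against 27.2, 33.8, 32.4 and 33.1 CPM in CTR glands (log2 0.52 ± 0.14 SE, adjusted p = 0.104). In both, all 3 GLLP glands lay above all 4 CTR glands, which was so for 3 members (with *Gpx4*) and for 9.49% of all genes. *Gpx4* had only 6 to 19 counts per library at this age, so its separation rests on values near 0. *Gsr*, with 64.8, 71.4 and 70.0 CPM in GLLP glands, against 82.6, 83.6, 77.6 and 72.8 CPM in CTR glands, and *Txnrd1* lay wholly below, as 7.6% of all genes did; neither passed (adjusted p = 0.237 and 0.412).

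**Figure D3:**
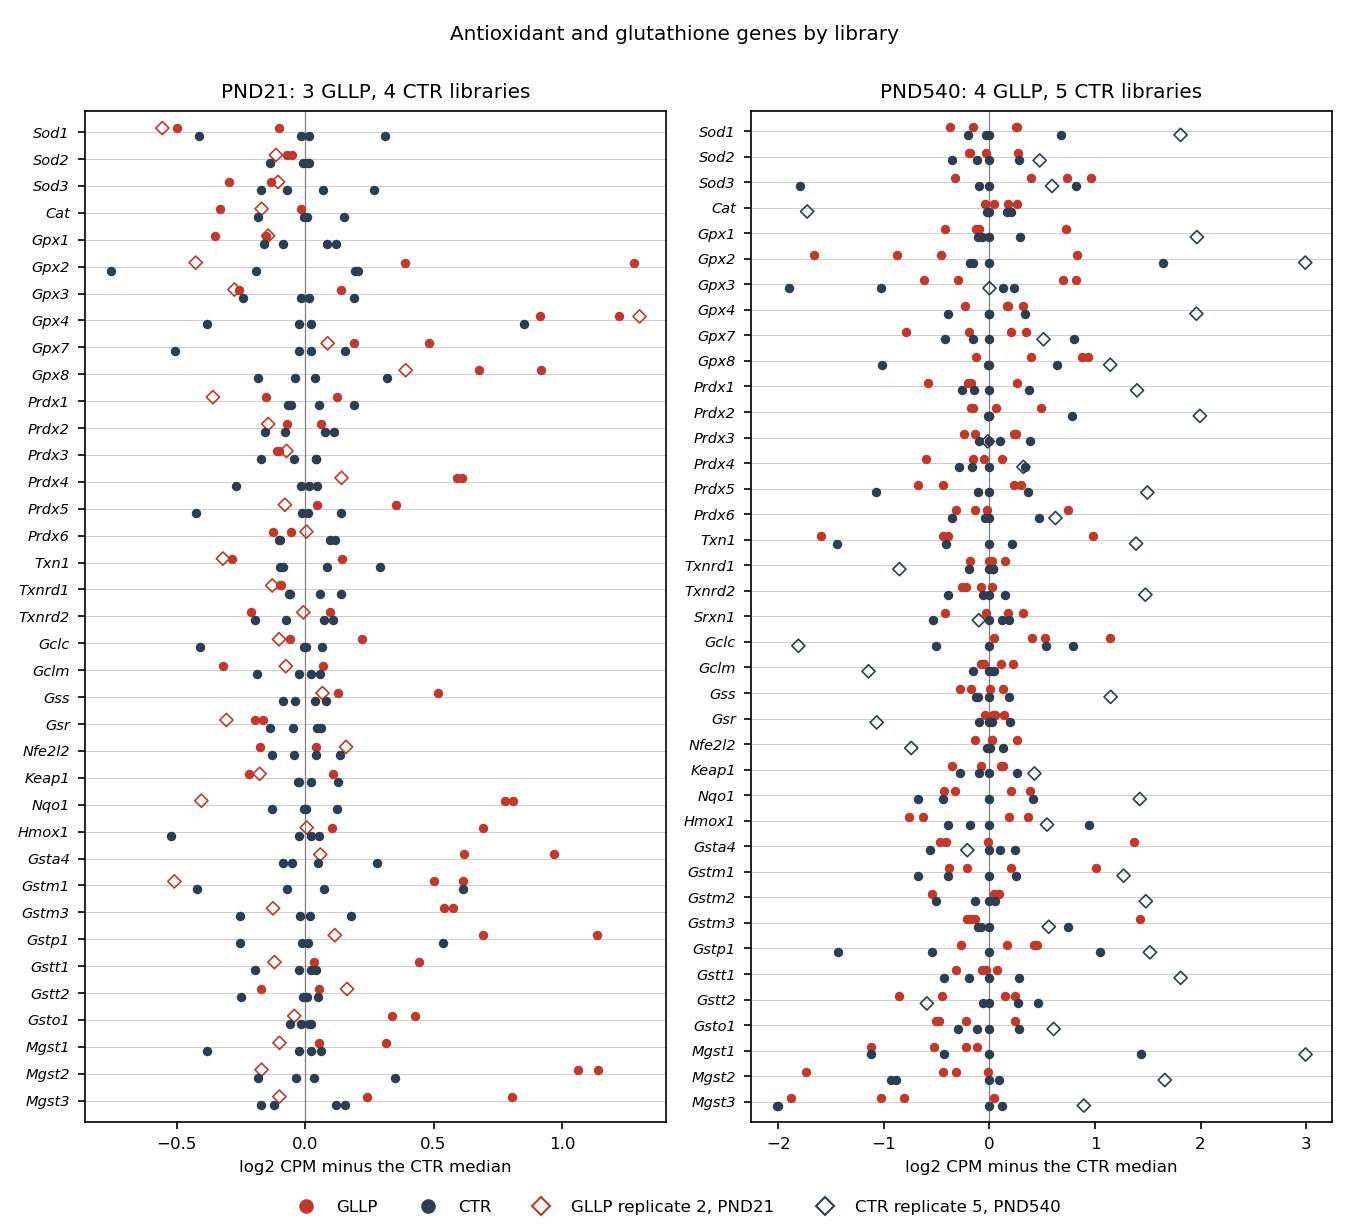
Log2 CPM of each library minus the CTR median of its age (x axis) for each member (rows), at PND21 on the left (37 members) and at PND540 on the right (39 members), with GLLP in red above CTR in dark. At PND21 GLLP replicate 2 (open red diamond) often lies left of the other 2 GLLP libraries, and at PND540 CTR replicate 5 (open dark diamond) lies outside the other 8 libraries for 22 members on the high side and 6 on the low side.

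The GLLP glands at PND21 were not alike. For 11 of the 37 members replicates 3 and 4 lay above the CTR range and replicate 2 did not, a pattern of 9.83% of all genes: *Gpx2*, *Gpx7*, *Gss*, *Nqo1*, *Hmox1*, *Gsta4*, *Gstm3*, *Gstp1*, *Gsto1*, *Mgst2* and *Mgst3*. *Gstp1*, whose promoter held the core, had 46.8, 69.8 and 94.8 CPM in GLLP replicates 2, 3 and 4, against 36.3, 43.5, 62.6 and 42.8 CPM in CTR glands. *Nqo1* had 1.48, 3.36 and 3.43 CPM in GLLP glands, against 1.96, 1.95, 2.13 and 1.79 CPM in CTR glands, and *Mgst2* had 1.45, 3.59 and 3.40 CPM in GLLP glands, against 1.59, 1.67, 2.07 and 1.43 CPM in CTR glands. In each of the 3 genes replicate 2 sat within or below the CTR range. Without it, 8 members were called higher by edgeR and 0 lower, where 5.25% and 4.71% of all genes were: *Gpx8*, *Prdx4*, *Nqo1*, *Gsta4*, *Gstm3*, *Gstp1*, *Gsto1* and *Mgst2*, from 1.31-fold in *Gsto1* to 2.06-fold in *Mgst2*. Each of the 7 libraries was left out in turn, and leaving out any other gave 0 called higher. This one is named after its values were seen: its median correlation with the other libraries (0.976) did not set it apart, and the 8 calls describe how far the result depends on it. That fit leaves 2 GLLP libraries, and its adjusted p-values ran from 0.0130 to 0.0499.

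Marker lists differed with the diet at this age. Basal epithelial markers (8 of 9 found, none at 0) summed to 768, 1011 and 1482 CPM in GLLP replicates 2, 3 and 4, against 541 to 1003 CPM in CTR glands, so that, as for the 11 members above, replicates 3 and 4 exceeded the CTR range and replicate 2 did not. Luminal markers summed to 3503 to 3757 CPM in GLLP glands, against 3769 to 3977 CPM in CTR glands, and endothelial markers (7 of 8 found, at most 1 at 0) to 126 to 138 CPM in GLLP glands, against 104 to 116 CPM in CTR glands. These 2 lists separated the diets fully, in opposite directions. Skeletal muscle markers (9 of 12 found, at most 1 of them at 0 in a library) summed to 422 to 668 CPM in GLLP glands, against 32.7 to 49.2 CPM in CTR glands. Fibroblast and matrix markers summed to 5592 to 7037 CPM in GLLP glands, against 3959 to 5802 CPM in CTR glands, and urothelial markers (7 of 7 found) to 12.4 to 47.1 CPM in GLLP glands, against 10.4 to 11.8 CPM in CTR glands. The diets did not overlap in the skeletal muscle and urothelial sums and overlapped in the fibroblast sum. The secretory products of the gland (7 of 8 found) summed to 41808 to 58704 CPM in GLLP glands, against 59983 to 77678 CPM in CTR glands. Their part in the members' differences was not tested. Of 106 other pathway genes tested at PND21, 3 passed: 1 rose and 2 fell, where 1.01% of all genes rose and 0.107% fell. Without GLLP replicate 2, 10 rose and 9 fell, against 5.25% and 4.71% of all genes. *Esd*, whose esterase releases glutathione from its formyl adduct, rose 1.41-fold (edgeR adjusted p = 0.0471). *Ggt6*, of the gamma-glutamyltransferase family, and *Osgin1* fell 10.5-fold and 1.73-fold (edgeR adjusted p = 0.0257 and 0.0336). *Ggt6* averaged 0.464 ± 0.243 CPM in GLLP glands at PND21 (SD, n = 3), against 4.96 ± 2.42 CPM in CTR glands at PND21 (SD, n = 4).

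At PND540 none of the 39 members differed between the diets past the threshold, and neither did any other gene (0% of 14767 called in either direction by edgeR, with 123 at an unadjusted p of 0.05; DESeq2 called 1 higher and 1 lower). At an unadjusted p of 0.05 edgeR had 1 member, and DESeq2 called 0 of them, with 2 at an unadjusted p of 0.05. No member separated the 4 GLLP from the 5 CTR glands, as 0.183% of all genes did with GLLP above and 0.21% with GLLP below. The smallest p belonged to *Mgst1*, with 29.1, 58.2, 43.9 and 54.2 CPM in GLLP glands, against 63.3, 47.0, 29.1, 171 and 505 CPM in CTR glands. Its log2 difference was -1.81 ± 0.78 SE (edgeR adjusted p = 0.914) with replicate 5 and -0.75 without it. *Gpx2* followed, with 3.82, 5.11, 2.21 and 12.5 CPM in GLLP glands, against 6.19, 6.29, 7.02, 21.9 and 55.9 CPM in CTR glands, and log2 differences of -1.72 ± 0.79 SE with replicate 5 and -0.81 without it. With all libraries 27 of 39 differences were negative and their median was -0.26. Without replicate 5, 17 were negative, the median was 0.02 and 0 were called. Both members measured at this age alone were among those that did not differ past the threshold. *Srxn1*, the sulfiredoxin that repairs overoxidised peroxiredoxins, had 41.9, 36.1, 46.2 and 27.6 CPM in GLLP glands, against 42.2, 37.0, 40.1, 25.5 and 34.5 CPM in CTR glands. The mu-class transferase *Gstm2* had 1244, 1273, 1284 and 825 CPM in GLLP glands, against 1255, 1098, 1206, 848 and 3369 CPM in CTR glands, and replicate 5 was again the highest of the 9. Of 106 other pathway genes tested at PND540, 0 passed by edgeR and 0 had an unadjusted p under 0.05.

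CTR replicate 5 lay above the other 8 glands for 22 members and below them for 6, where 34.3% of all genes lay above and 36.4% below. The microsomal transferase *Mgst1* stood at 505 CPM there, against 29.1 to 171 CPM in the other 8, and *Gpx2* at 55.9 CPM, against 2.21 to 21.9 CPM. *Prdx2* stood at 1503 CPM, against 335 to 647 CPM, and *Gpx1* at 1029.9 CPM, against 196 to 436 CPM. The 6 on the low side were *Cat*, *Txnrd1*, *Nfe2l2* and 3 of the 4 genes of glutathione synthesis and recycling (*Gclc*, *Gclm* and *Gsr*). *Cat* stood at 19.9 CPM, against 64.1 to 79.1 CPM, and *Gclc* at 8.59 CPM, against 21.2 to 66.3 CPM; *Gss* was high, at 50.6 CPM, against 18.8 to 25.9 CPM. Erythroid markers (11 of 13 found) summed to 2261 CPM in this library, against at most 265 CPM in the other 8. Basal markers summed to 1424 CPM, against at most 646 CPM, and luminal markers to 7587 CPM, against at most 5200.2 CPM. Macrophage markers (633 CPM, against at most 509.5 CPM) and skeletal muscle markers (46.2 CPM, against at most 23.9 CPM) were highest there too. The part of these cells in its values was not tested.

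**Figure D4:**
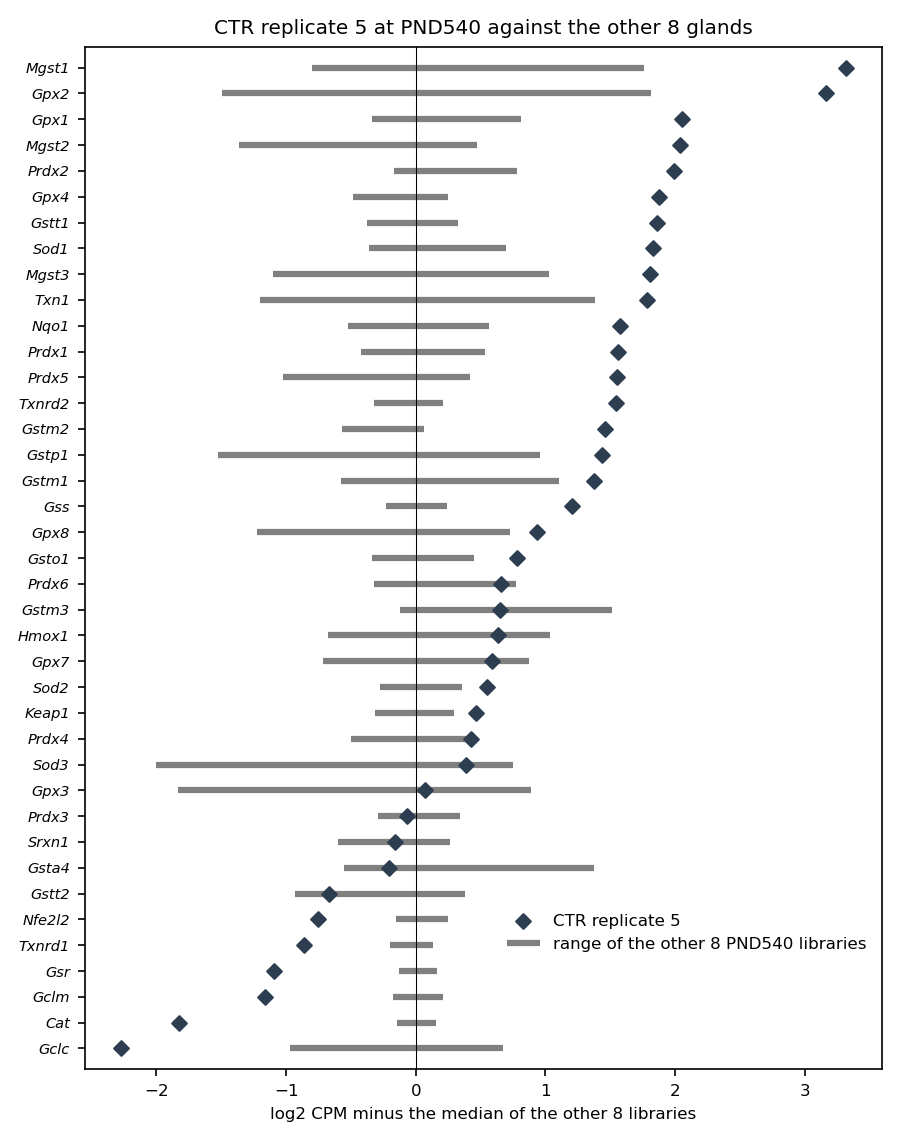
Log2 CPM of CTR replicate 5 at PND540 (diamonds) minus the median of the other 8 libraries (x axis) for the 39 members (rows), with the range of those 8 as grey bars. *Mgst1*, at 505 CPM, and *Gpx2*, at 55.9 CPM, lie farthest above that median, and *Gclc*, at 8.59 CPM, and *Cat*, at 19.9 CPM, farthest below.

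Whether the diet difference changed with age was tested as an interaction over all 16 libraries. Of 37 members 0 passed by edgeR, where 0% of all genes were called higher and 0.0917% lower; 4 members had an unadjusted p under 0.05, as had 5.17% of all genes, and DESeq2 called 0 with 5 such. *Prdx4*, which fell 3.02-fold with age in GLLP and 1.81-fold in CTR glands, had the smallest p, with a log2 interaction of -0.72 ± 0.27 SE (adjusted p = 0.738). *Gpx2* (-2.35 ± 1.01 SE) and *Mgst1* (-1.95 ± 0.91 SE) had the same adjusted p, so the calls of *Mgst1* in GLLP and *Gpx2* in CTR do not show that their age differences depended on the diet. Without CTR PND540 replicate 5 the log2 interaction was -0.93 ± 0.58 SE for *Mgst1*, -1.50 ± 0.80 SE for *Gpx2* and -0.68 ± 0.25 SE for *Prdx4*, and 0 members passed.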

How the data were processed

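Values are raw counts per gene, deposited by the authors in 1 table per age. Per the labels' protocols, total RNA was extracted with Trizol from frozen ventral prostate and made into Illumina libraries; STAR, edgeR 3.34.0 and the build Rnor_6.0 are named, per the submitters' processing notes. No counting tool, annotation or strand setting is stated, so reads of a gene and an antisense partner cannot be told apart. RefSeq names pseudogenes for 9 members, among them *Prdx1* (7), *Gpx4* (4), *Gstp1* (3) and *Gsta4* (3), whose counts are less certain.

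Genes were filtered (filterByExpr), scaled to CPM by TMM factors and tested with edgeR 4.0.16 (quasi-likelihood, robust, R 4.3.3), with Benjamini-Hochberg adjustment over all genes tested at 0.05. The SE of a log2 difference was derived from the test, as its size divided by the square root of the quasi-likelihood F statistic. Diet was tested within each age. Age within each diet and the interaction were tested on genes named in both tables; the interaction used all 16 libraries. The fits were tested on simulated data with known changes. Of 2-fold changes, the diet fit recovered 65.7% at PND21 and 2.99% at PND540, and the interaction fit 1.49%. Of 4-fold changes these fits recovered 93.9%, 43.9% and 45.5%. The age fits recovered 10.4% of 2-fold changes in CTR and 17.9% in GLLP. Members not called for diet at PND540 or for the interaction may thus still differ 2-fold. Totals were 28748604 to 39161666 counts, and replicates differed beyond sampling noise (chi-square per degree of freedom 30.3 or more).

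Alternatives were library size alone, DESeq2 (1.42.0) and its size factors, no filter, a filter at 1 CPM, a non-robust fit, a joint fit, the replicate number as a block, and leaving out each library. Named genes were the 39 members and, of 125 pathway genes, those called for diet and up to 3 per list and direction for age with the smallest p; *Fth1*, *Ftl1*, *Gsto2* and *Gnmt* are given by level only, *Slc7a11* without a fold, and *Aldh3a1* was named after its values were seen. The limit of 0.5 CPM set for genes close to 0 caught no member and was widened to 2 CPM. The members and lists were chosen with earlier results of these data known.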

Additional observations from a re-analysis of the deposited data

Results flagged for a closer look

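In 18 of 115 sets of 4 or 5 libraries examined, one per member and group, a library lay far from the others of its group by Dixon's criterion. Chance gives about 1 in 20 for independent sets, but the sets share their libraries and are not independent. No share of all genes by this criterion is given. CTR replicate 5 at PND540 was that library in 13 of them. This library lay above the other 8 of its age for 34.3% of all genes and below them for 36.4%. It was high for the superoxide dismutase *Sod1* (590 CPM, against 146 to 269 CPM in the other CTR glands), the peroxidases *Gpx1* (1030 CPM, against 245 to 322 CPM) and *Gpx4* (651 CPM, against 127 to 212 CPM), and the peroxiredoxins *Prdx1* (404 CPM, against 128 to 199 CPM) and *Prdx2* (1503 CPM, against 374 to 647 CPM). It was also high for *Txnrd2* (88 CPM, against 24.1 to 35.0 CPM), *Gss* (50.6 CPM, against 20.9 to 25.9 CPM) and the transferases *Gstm2* (3369 CPM, against 848 to 1255 CPM), *Gstt1* (113 CPM, against 24 to 39 CPM) and *Mgst2* (9.48 CPM, against 1.57 to 3.20 CPM). It was low for *Cat* (19.9 CPM, against 64.8 to 76.1 CPM), *Gclm* (13.7 CPM, against 27.2 to 31.3 CPM) and *Nfe2l2* (82.1 CPM, against 135 to 150 CPM).

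The other 5 lay in 4 libraries. In CTR glands at PND21, *Sod2* was low in replicate 4 (122 CPM, against 133 to 135 CPM in the others) and *Hmox1* in replicate 1 (5.31 CPM, against 7.49 to 7.90 CPM). In GLLP glands at PND540, replicate 4 was high for *Gsta4* (5.53 CPM, against 1.55 to 2.12 CPM) and low for *Gstm2* (825 CPM, against 1244 to 1284 CPM), and replicate 2 was high for *Gstm3* (1.38 CPM, against 0.44 to 0.47 CPM). The 3 GLLP glands at PND21 were too few for this criterion.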

How the results depend on the processing

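Of 3249 values of single members under the alternatives, 3047 kept their direction and side of the threshold. The sign changed in another 135, none of them a called member, 59 passed the threshold anew and 8 no longer did. Apart from *Gstm1* and *Nfe2l2*, the members called between the ages stayed called under each alternative. Members called higher in the diet comparison at PND21 numbered 2 with library size alone and 2 with DESeq2 (4.19% and 4.5% of all genes), against 0 in the reported result (1.01%). They numbered 0 to 8 with 1 library left out, with 8 without GLLP replicate 2 (5.25% of all genes). Members that rose with age in CTR glands numbered 7 with DESeq2 (20.6% of all genes) and 7 in a joint fit of all 16 libraries (2973 of 14178 genes), against 4 (17.3%). With 1 library left out, 3 to 7 members rose and 6 to 11 fell, against 4 and 6. Over all genes 1722 to 3490 rose and 1318 to 3084 fell then, against 2336 and 1781. All these maxima were reached without CTR PND540 replicate 5. In GLLP glands 12 fell with library size alone (21.3% of all genes), against 7 (17.1%). With 1 library left out 3 to 6 rose, against 5, the fewest without PND21 replicate 3, and 7 to 9 fell. Over all genes 1796 to 2567 rose and 1638 to 2672 fell then, against 2611 and 2341. The cause of these shifts was not tested, though a left-out library also lowers the number of samples. Counts of 0 in the diet comparison at PND540 and in the interaction were 0 under each alternative run.

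Replicate numbers did not pair the samples: same-numbered libraries had correlations of their deviations from -0.165 to 0.300. With the replicate block, 8 members rose and 11 fell with age in CTR glands (23.5% and 21% of all genes) and 3 rose and 8 fell in GLLP glands (14.6% and 13.2%), where *Gstm1* and *Nfe2l2* did not pass (adjusted p = 0.100 and 0.0988), and both diet comparisons and the interaction gave 0; a library whose number has no partner, such as CTR PND540 replicate 5, then adds nothing to the contrast. The biological coefficient of variation was 46.2% in the diet comparison at PND540 (34.1% without CTR replicate 5) and 19.6% at PND21, which limits what 4 and 5 libraries can show.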

Other observations

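Among the other pathway genes, the list of NADPH supply and Nrf2 targets held 8 genes that rose and 3 that fell with age in GLLP glands, of 27 tested. In CTR glands 7 rose and 1 fell, of 27. Of all genes, 19.1% rose and 17.1% fell in GLLP, and 17.3% and 13.2% in CTR. Those that rose include, in both diets, the ferritin chains *Fth1* and *Ftl1*, set apart above as near 0 at PND21. Among those that fell, the mitochondrial isocitrate dehydrogenase *Idh2* fell 1.56-fold in GLLP glands and the transketolase *Tkt*, of the non-oxidative pentose phosphate branch, 1.62-fold (edgeR adjusted p = 0.0149 and 0.0171), and in CTR glands the malic enzyme *Me1* fell 1.71-fold (adjusted p = 0.0311). Of transporters, *Slc1a4*, a carrier of small neutral amino acids, averaged 8.26 ± 0.989 CPM in GLLP glands at PND540 (SD, n = 4), against 30.0 ± 6.50 CPM in GLLP glands at PND21 (SD, n = 3), and fell 3.65-fold in GLLP and 4.01-fold in CTR (adjusted p = 0.000167 and 0.0254). *Abcc1*, which exports glutathione conjugates, rose 1.96-fold in GLLP glands (adjusted p = 0.0175). Whether these differences depended on the diet was tested, and 0 of 106 genes passed the interaction by edgeR, with 8 at an unadjusted p under 0.05.

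The mitochondrial glutaredoxin *Glrx2* rose 1.65-fold in GLLP and 1.58-fold in CTR glands (edgeR adjusted p = 0.00545 and 0.0117). The cytosolic *Glrx* fell 1.75-fold in CTR glands (adjusted p = 0.0376). Of the enzymes that make hydrogen peroxide, the peroxisomal acyl-CoA oxidase *Acox3* rose 2.32-fold in GLLP and 2.01-fold in CTR (adjusted p = 0.000259 and 0.00202). The monoamine oxidase *Maoa* fell 2.14-fold in GLLP and 2.77-fold in CTR (adjusted p = 0.0359 and 0.0324). Like *Fth1*, the omega-class transferase *Gsto2* and the methyltransferase *Gnmt* were listed at 0 in every young library and counted among those that rose. Stromal markers also differed between the ages, and their part in these values was not tested.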
